A study of Mus musculus with 8 samples.

Results

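The C-type lectin genes of bone marrow-derived macrophages (BMDMs) were taken as every gene of the count table whose symbol begins with Clec and a digit. Of 54532 genes listed, 33 had such a symbol. A summed count of at least 40 over the 8 libraries was found for 20 of them, and these 20 are compared between genotypes here, among 14193 genes that passed the same limit. The other 13 were below it.

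C-type lectins share a fold that binds glycans, lipids or proteins in different members of the family. On macrophages and other myeloid cells, several of them act as pattern recognition receptors for fungi, mycobacteria and dead cells. Some carry or recruit an activating motif that the kinase Syk docks on and that leads through Card9 to NF-kB, while others carry an inhibitory motif that recruits phosphatases. The gene family is known for its clusters on mouse chromosome 6, where members arose by duplication.

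To obtain BMDMs, marrow cells are cultured with M-CSF, the colony-stimulating factor of macrophages, until they become adherent macrophages. Wildtype (WT) BMDMs were compared with BMDMs of Gsdmd-/- mice, which lack gasdermin D, the protein that forms membrane pores in pyroptosis. The WT mice were purchased female C57BL/6J mice aged 6 to 8 weeks. The Gsdmd-/- mice were a gift, and neither their age nor their sex was given separately, so that genotype and the source of the mice cannot be told apart. Both groups were differentiated for 6 days, were given no treatment and had 4 libraries each. Whether the 4 libraries of a group stand for 4 mice is not stated. The p-values therefore measure the spread between these libraries, which may be technical.

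Total counts lay between 14935114 and 16794810 per library. Gsdmd, on chromosome 15 at 75862327 to 75867408 (mm10), had between 63.3 and 94.8 CPM (read counts scaled to library size by edgeR's TMM factors) in WT and between 14.3 and 18.2 CPM in Gsdmd-/- libraries. Its log2 fold change was -2.22 with all libraries and -2.39 without the libraries WT 2 and WT 3, described next. Macrophage markers were detected in all 8 libraries, with all 12 of the list tested and none past the cutoff given below. Their summed level was lowest in WT 2 and WT 3 (15473 and 17469.5 CPM) and between 19564 and 23920.3 CPM in the other 6 libraries. WT 2 and WT 3 stood apart from the other 6 libraries. On the first principal component, which held 40.5% of the variance, they lay at 51.2 and 44.5, and the others between -28.6 and -9.18. For the C-type lectin genes, log2 fold changes are therefore also given without WT 2 and WT 3.

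Of the 33 C-type lectin genes, 25 lie on chromosome 6, 17 of the tested ones among them. A cluster of 9 genes (7 tested) spans 368 kb at chr6:122921848-123289870 and holds Clec4a1, Clec4a3, Clec4a4, Clec4b1, Clec4a2, Clec4b2, Clec4n, Clec4d and Clec4e. A second cluster of 13 genes (8 tested) spans 820.4 kb at chr6:128652416-129472779 and runs from Clec2j to Clec7a. Clec2l, Clec5a and Clec4f lie elsewhere on the chromosome. None of the 33 genes lies on chromosome 15 with Gsdmd.

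The promoters of 4 members of these clusters are shown, 250 bases up to the start site, as the results below turn on these genes. Clec7a was the member with the most counts, and Clec4e, Clec4a1 and Clec2i had the widest ranges among the WT libraries of the members with a promoter entry. The sequences are from RefSeq (GRCm38.p6), written from 5′ to 3′ on the strand of the gene. Capitals mark a match to a C/EBP motif (TTGCNNAA) in Clec4e and to an NF-kB motif (GGGA and CC with any 4 bases between them) in Clec4a1, each searched on both strands.
Clec7a (chr6:129472780-129473029, minus strand): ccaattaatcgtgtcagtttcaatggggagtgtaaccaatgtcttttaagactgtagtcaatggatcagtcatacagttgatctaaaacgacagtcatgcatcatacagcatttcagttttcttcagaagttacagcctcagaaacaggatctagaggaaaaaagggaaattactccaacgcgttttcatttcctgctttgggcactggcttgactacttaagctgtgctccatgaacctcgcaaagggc
Clec4e (chr6:123289872-123290121, minus strand): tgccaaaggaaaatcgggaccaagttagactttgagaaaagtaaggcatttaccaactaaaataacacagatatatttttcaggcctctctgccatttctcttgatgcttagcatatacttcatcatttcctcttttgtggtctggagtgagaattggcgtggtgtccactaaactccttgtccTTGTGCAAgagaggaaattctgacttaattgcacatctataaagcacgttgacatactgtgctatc
Clec4a1 (chr6:122921598-122921847, plus strand): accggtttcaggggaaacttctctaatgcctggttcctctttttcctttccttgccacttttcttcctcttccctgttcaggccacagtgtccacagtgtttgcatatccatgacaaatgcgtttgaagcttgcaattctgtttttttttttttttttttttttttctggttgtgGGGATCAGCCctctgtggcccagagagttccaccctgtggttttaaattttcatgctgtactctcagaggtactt
Clec2i (chr6:128887337-128887586, plus strand): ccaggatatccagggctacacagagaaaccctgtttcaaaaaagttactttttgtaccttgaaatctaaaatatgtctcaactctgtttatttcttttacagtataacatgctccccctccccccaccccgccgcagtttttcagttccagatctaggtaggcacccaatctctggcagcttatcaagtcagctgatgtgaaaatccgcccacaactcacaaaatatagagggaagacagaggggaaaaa

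The C/EBP letters were present in 9.56% of all 32851 promoters of this length and in 4 of the 16 tested members with an entry, which were Clec4e, Clec12a, Clec16a and Clec11a. The NF-kB letters were present in 17.6% of all promoters and in 2 of the 16, Clec4a1 and Clec2l. An AP-1 motif (TGANTCA) was found in 6.75% of all and in Clec12a alone of the 16. A PU.1-type motif (GAGGAAGT) was found in 2.44% of all and in none of the 16. Clec7a and Clec2i held none of the 4 motifs in this window. A match is only a description of the letters. Clec4n, Clec10a, Clec1a and Clec2f had no entry.

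C-type lectin genes held between 0.407% and 0.755% of the reads of a library. Their summed level was 6289.8, 4046, 4315 and 7601 CPM in WT 1 to WT 4 and 5366, 5355, 6212 and 5511 CPM in Gsdmd-/- 1 to 4. All 4 Gsdmd-/- sums thus lay inside the WT range, with WT 2 and WT 3 below them. Clec7a gave between 47.4% and 64.9% of this sum, and Clec7a and Clec4n together between 82.0% and 89.0%.

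Levels of different genes were compared per length, as CPM per kb of annotated exon, given as mean ± SD over the 8 libraries. Clec7a (1233 ± 341) and Clec4n (1120.0 ± 172) stood at the top and did not differ beyond their spread. Clec4d followed at 172 ± 29.4, clear of both and of the genes below it. Clec4a2 (42.9 ± 12.3), Clec5a (26.3 ± 6.19) and Clec2d (22.1 ± 2.79) came next, and each overlapped the next of them within its SD. From Clec4a3 (10.6 ± 3.88) through Clec16a, Clec9a, Clec4b1, Clec1b and Clec12a to Clec4e (4.25 ± 2.60), each gene overlapped the next within its SD. Clec1a (2.51 ± 0.518), Clec10a (1.32 ± 0.479), Clec4a1 (1.19 ± 1.06), Clec2l (1.04 ± 0.257), Clec2i (0.967 ± 0.426), Clec2f (0.619 ± 0.382) and Clec11a (0.289 ± 0.105) were the lowest. The exon length of Clec1b includes a long exon of a transcript with a retained intron, which lowers its value per kb.

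**Figure D1:**
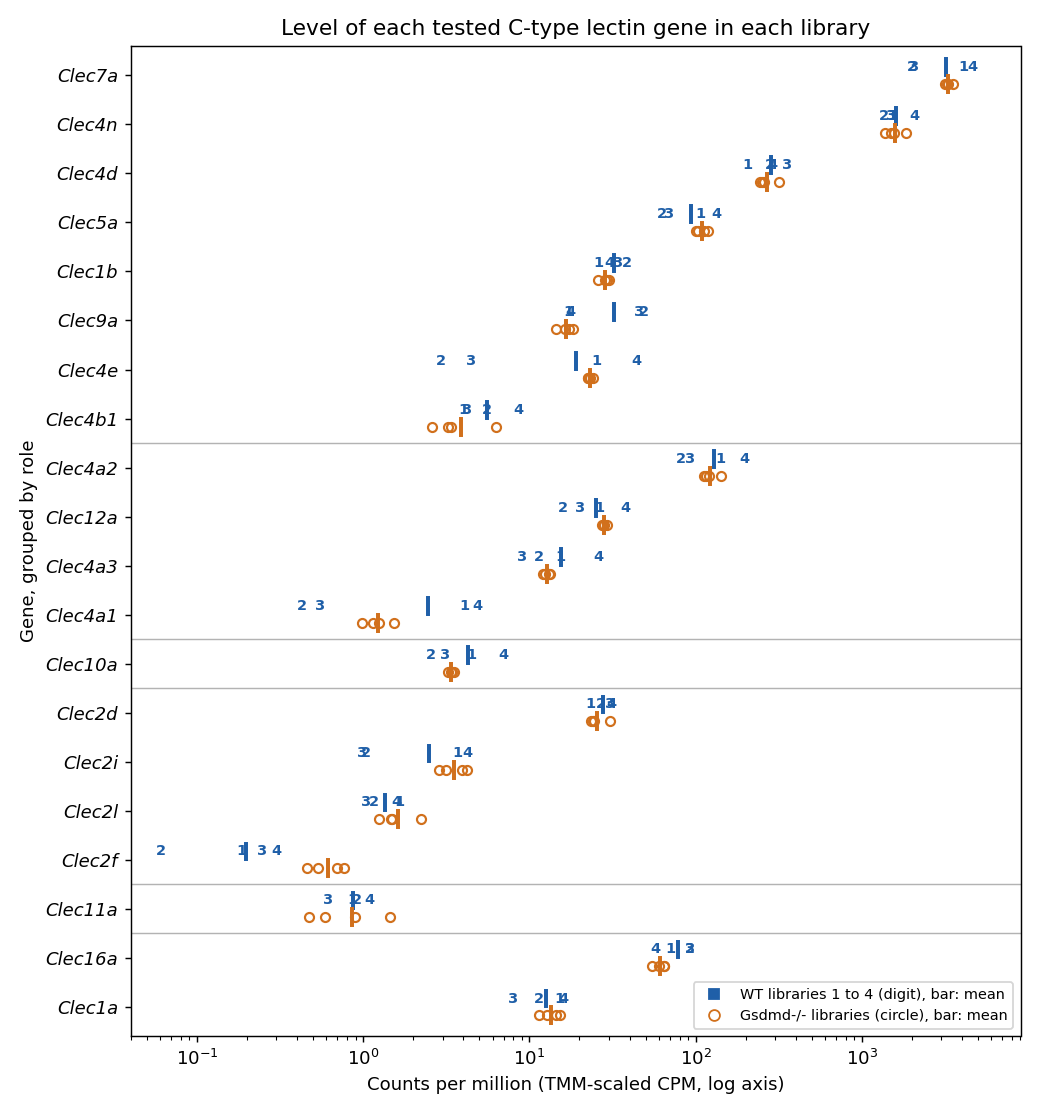
Level of the 20 tested C-type lectin genes in CPM (log axis), grouped by role, with WT libraries as blue digits 1 to 4, Gsdmd-/- libraries as orange circles and the mean of each group as a bar. Clec7a and Clec4n lie above 1000 CPM in all 8 libraries, and the digits 2 and 3 lie to the left of the other WT digits for Clec4e, Clec4a1 and Clec2i and to the right for Clec9a.

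No tested C-type lectin gene differed between the genotypes at an adjusted p under 0.05 in edgeR's quasi-likelihood test, where 0.331% of all genes tested passed (47 genes, with 0.12% higher and 0.211% lower in Gsdmd-/-). At an unadjusted p under 0.05 the test gave 3 members, Clec2f, Clec9a and Clec16a, beside 11.9% of all genes. Limma voom, the exact test of edgeR and DESeq2 also gave 0 members at an adjusted p under 0.05, and gave 2, 3 and 3 at an unadjusted p under 0.05. The cutoff that the study used for this contrast was an unadjusted p under 0.05 and a log2 fold change of 0.5 or more in either direction. At this cutoff 1 member was higher in Gsdmd-/- (Clec2f, beside 1.68% of all genes) and 1 was lower (Clec9a, beside 3.68%). Clec2f met the limit of 40 through its Gsdmd-/- libraries (summed count 13 in WT and 40 in Gsdmd-/-), so its call is a description only. The log2 fold change was above 0 for 8 members and below 0 for 12, with a median of -0.05, and the median of all genes tested was -0.01. The libraries of the genotypes did not overlap for 1 member, Clec2f, beside 7.17% of all genes. As Clec2f was tested because of its Gsdmd-/- counts, this lack of overlap is a description only. All p-values below are Benjamini-Hochberg adjusted p-values over the 14193 genes from the edgeR test unless they are called unadjusted.

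**Figure D2:**
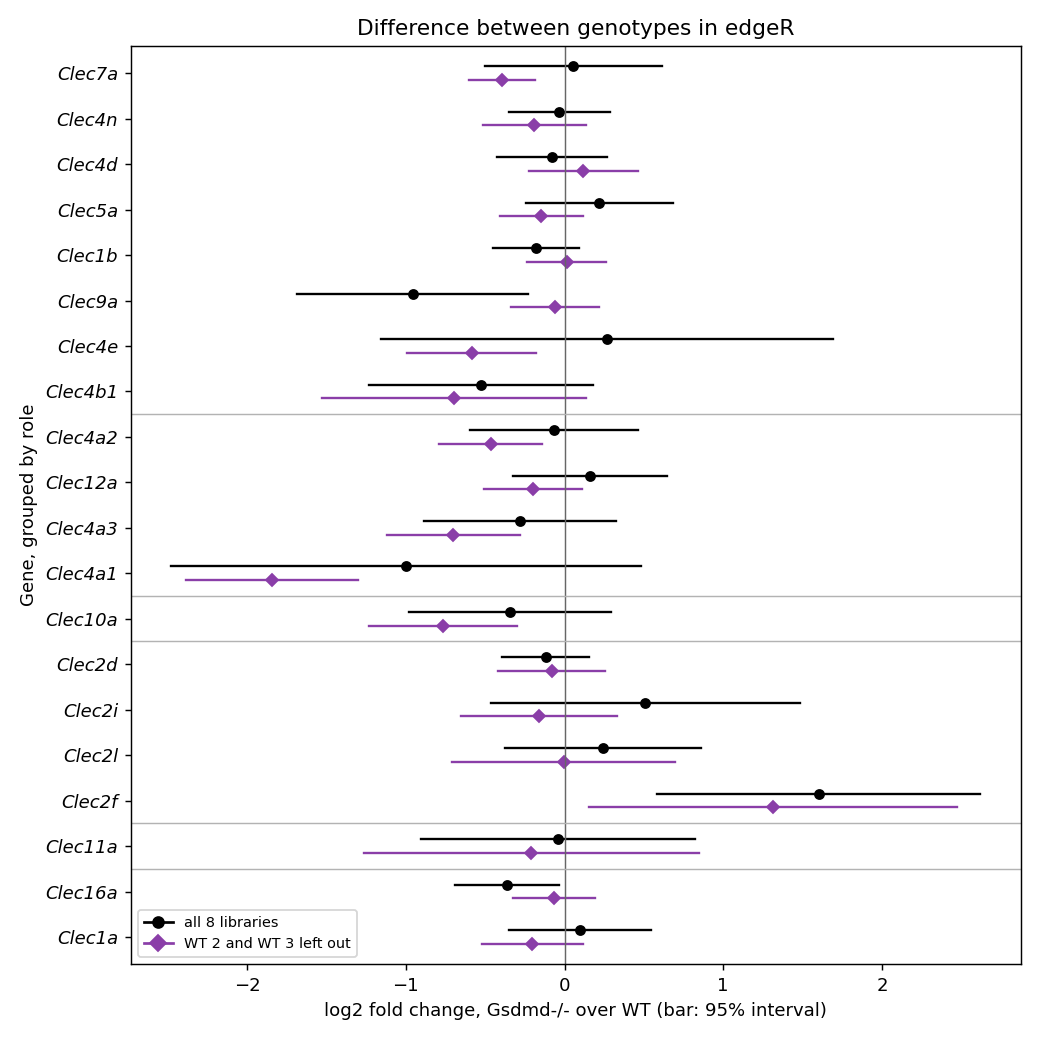
log2 fold change of Gsdmd-/- over WT for the 20 tested genes in edgeR, with bars for the 95% interval, from all 8 libraries (black circles) and with WT 2 and WT 3 left out (purple diamonds). With all libraries only the intervals of Clec9a, Clec16a and Clec2f leave out 0, and without WT 2 and WT 3 the point of Clec4e moves from 0.27 to -0.58 and that of Clec9a from -0.96 to -0.06.

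Of 9 receptors that signal through Syk, 8 were tested. None passed an adjusted p under 0.05, and 1, Clec9a, was lower in Gsdmd-/- at the cutoff. Clec7a encodes Dectin-1, the receptor for fungal beta-glucan, which carries its own activating motif. GENCODE M21 types the gene as a polymorphic pseudogene. It had 4083, 2009, 2045 and 4625 CPM in WT 1 to 4 and 3160.3, 3283, 3556 and 3263 CPM in Gsdmd-/- 1 to 4. The 4 Gsdmd-/- libraries lay between the low WT 2 and WT 3 and the high WT 1 and WT 4. The group means of 3191 ± 1362 (SD, n = 4) in WT and 3316 ± 169 in Gsdmd-/- gave a log2 fold change of 0.06 (SE 0.253, adjusted p = 0.954 in edgeR). Without WT 2 and WT 3 it was -0.39, with an unadjusted p of 0.00185 and an adjusted p of 0.0902 in edgeR.

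Clec4n (Dectin-2) and Clec4d (MCL) bind microbial mannans and glycolipids and signal through the Fc receptor gamma chain. Clec4n had 1516, 1352, 1495 and 2069.8 CPM in WT and 1504, 1384, 1849 and 1554 CPM in Gsdmd-/- libraries, with a log2 fold change of -0.03 (SE 0.143). Clec4d had 205, 280.1, 357 and 287 CPM in WT and 258, 245, 317 and 249 CPM in Gsdmd-/- libraries, with a log2 fold change of -0.08 (SE 0.155). For both genes the Gsdmd-/- libraries lay inside the WT range. For Clec4n, WT 2 and WT 3 were not set apart from the other WT libraries, and for Clec4d WT 1 was the lowest and WT 3 the highest of all 8.

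Clec4e encodes Mincle, the receptor for mycobacterial cord factor, whose gene lies beside Clec4d and whose promoter is shown above. It had 25.2, 2.92, 4.47 and 44.0 CPM in WT and 22.6, 23.0, 24.3 and 22.4 CPM in Gsdmd-/- libraries. WT 4 stood 15-fold above WT 2, the widest range of the 20 genes, while the highest Gsdmd-/- library was 1.09-fold above the lowest. Between genotypes the log2 fold change was 0.27 (SE 0.643, adjusted p = 0.906 in edgeR). Without WT 2 and WT 3 it was -0.58, with an adjusted p of 0.197 in edgeR, and passed the cutoff of the study.

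Clec5a encodes MDL-1, which signals through Dap12. It had 107, 63.0, 69.6 and 133 CPM in WT and 112, 103, 119 and 101 CPM in Gsdmd-/- libraries (log2 fold change 0.22, SE 0.208). Clec4b1, a DCAR receptor, had 3.99, 5.54, 4.22 and 8.52 CPM in WT and 2.61, 3.36, 6.29 and 3.23 CPM in Gsdmd-/- libraries (log2 fold change -0.53, SE 0.319). The lowest libraries for Clec5a were WT 2 and WT 3. For Clec4b1 the genotypes overlapped through Gsdmd-/- 3.

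Clec9a encodes DNGR-1, a receptor for actin of dead cells that is known from conventional dendritic cells. It had 17.1, 48.9, 45.4 and 17.5 CPM in WT and 14.5, 16.4, 17.4 and 18.2 CPM in Gsdmd-/- libraries. Both WT 2 and WT 3 were high, and WT 1 and WT 4 lay inside the Gsdmd-/- range. Its log2 fold change was -0.96 (95% interval -1.68 to -0.23, adjusted p = 0.304 in edgeR) with all libraries and -0.06 without WT 2 and WT 3 (-0.34 to 0.22). Clec1b, which encodes the podoplanin receptor CLEC-2 known from platelets, had 26.1, 38.6, 33.9 and 30.2 CPM in WT and 30.2, 29.3, 28.4 and 25.8 CPM in Gsdmd-/- libraries (log2 fold change -0.18, SE 0.123). Its highest libraries were WT 2 and WT 3 as well. Clec1b and Clec9a share 184 exon bases on the same strand, and 4.02% of the 50-base stretches of Clec9a also occur in another gene, so that reads there may be split between the genes or dropped.

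Markers of the cells that Clec9a and Clec1b are known from were read beside them. In bulk RNA, fewer cells of a type and less RNA per cell cannot be told apart. Of 12 dendritic cell markers 8 were tested, and their summed level was between 2336 and 2553 CPM in WT and between 1806 and 2237 CPM in Gsdmd-/- libraries, most of it from Itgax, which macrophages also express. Siglech had no count, and Flt3 and Xcr1 were at or under 0.118 and 0.242 CPM in every library. At the cutoff Bcl11a was higher in Gsdmd-/- (log2 fold change 1.45, beside 1.68% of all genes). Kmo (-1.13) and Batf3 (-0.72) were lower, beside 3.68% of all genes. Of the 8 tested, 3 were above 0 and 5 below it, with a median of -0.36. An unadjusted p under 0.05 in edgeR was found for 4 of them (11.9% of all genes). With WT 2 and WT 3 left out, Bcl11a was at 1.37, Kmo at -1.78 (adjusted p = 0.036 in edgeR) and Batf3 at -0.52, which did not pass the cutoff, while Ccr7 (-1.99) did. In that fit 3.07% of all genes were higher and 3.09% lower at the cutoff. Of 7 megakaryocyte and platelet markers 3 were tested with none past the cutoff, with Gp1bb and Gp6 at 0 and a summed level of 10.05 to 33.2 CPM in WT and 15.8 to 20.3 CPM in Gsdmd-/- libraries. When WT 2 and WT 3 were left out, Pf4 was lower at the cutoff (-0.57, against -0.11 with all libraries). The part of such cells in the values of Clec9a and Clec1b was not tested.

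The DCIR group and Clec12a form the next list, with 4 of 6 tested and none past either threshold. Clec4a2 encodes DCIR1, which carries an inhibitory motif. It had 142, 81.5, 92.8 and 197 CPM in WT and 116, 112, 143 and 121 CPM in Gsdmd-/- libraries (log2 fold change -0.06, SE 0.239). Clec4a3, another gene of the group, had 15.2, 11.4, 9.0 and 26.0 CPM in WT and 13.2, 12.5, 13.2 and 12.0 CPM in Gsdmd-/- libraries (log2 fold change -0.28, SE 0.273). In both genes the Gsdmd-/- libraries lay inside the WT range, above WT 2 and WT 3 and below WT 4.

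Clec4a1 had 4.05, 0.426, 0.551 and 4.83 CPM in WT and 1.24, 1.53, 1.14 and 0.989 CPM in Gsdmd-/- libraries. WT 1 and WT 4 were above all Gsdmd-/- libraries, and WT 2 and WT 3 were below them, with 11.3-fold between WT 4 and WT 2. With all libraries the log2 fold change was -1.0 (95% interval -2.48 to 0.48, adjusted p = 0.607 in edgeR). Without WT 2 and WT 3 it was -1.84 (-2.39 to -1.30, adjusted p = 0.0076 in edgeR), and Clec4a1 was the only member that passed an adjusted p under 0.05 in that fit, where 0.761% of all genes were lower and 0.38% higher. Clec12a, which encodes an inhibitory receptor for uric acid crystals, had 26.4, 15.8, 20.1 and 37.9 CPM in WT and 27.8, 29.3, 28.0 and 27.2 CPM in Gsdmd-/- libraries (log2 fold change 0.16, SE 0.22). Its Gsdmd-/- libraries lay between WT 1 and WT 4, with WT 2 and WT 3 low.

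Of the uptake receptors, 1 of 3 was tested. Clec10a, a galactose-type lectin that is used as a marker of alternatively activated macrophages, had 4.48, 2.56, 3.12 and 7.01 CPM in WT and 3.5, 3.42, 3.24 and 3.36 CPM in Gsdmd-/- libraries (log2 fold change -0.34, SE 0.287, adjusted p = 0.695 in edgeR). The Gsdmd-/- libraries lay within 1.08-fold of each other, inside the WT range. Of its 50-base stretches 9.02% also occur in another gene, most of them in its near copy Mgl2. Clec4f and Clec4g were below the limit.

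The Clec2 family encodes ligands of the NKR-P1 receptors of NK cells. Of 8 of its genes in the table, 4 were tested. Clec2f is annotated as a transcribed pseudogene in GENCODE M21, and Clec2j, which had no count, as a pseudogene. Clec2f had 3, 1, 4 and 5 counts in WT and 9, 13, 11 and 7 counts in Gsdmd-/- libraries, or 0.0609 to 0.302 CPM in WT and 0.462 to 0.767 CPM in Gsdmd-/-. All Gsdmd-/- libraries were above all WT libraries. A log2 fold change of 1.60 (95% interval 0.58 to 2.62) had an unadjusted p of 0.00548 and an adjusted p of 0.227 in edgeR, and it was 1.31 without WT 2 and WT 3. The summed count was 13 in WT and 40 in Gsdmd-/-, so Clec2f met the limit of 40 through the group where it was high. Neither the interval nor the p-values take this choice into account. A count of 3 is the limit that a count of 0 allows, and 2 of the WT libraries were at or under it, so the depth behind this difference is small.

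Clec2d, which encodes a ligand of an inhibitory NKR-P1 receptor, had 23.1, 26.9, 30.4 and 31.1 CPM in WT and 23.6, 24.6, 30.4 and 24.1 CPM in Gsdmd-/- libraries (log2 fold change -0.12, SE 0.125). The genotypes overlapped over nearly the same range, with Gsdmd-/- 3 above its group. Clec2i, whose promoter is shown above, had 3.69, 1.04, 0.979 and 4.23 CPM in WT and 2.85, 4.19, 3.94 and 3.17 CPM in Gsdmd-/- libraries (log2 fold change 0.51, SE 0.439, adjusted p = 0.706 in edgeR). WT 2 and WT 3 were low, and without them the log2 fold change was -0.16. Clec2l had between 1.04 and 1.66 CPM in WT and between 1.25 and 2.22 CPM in Gsdmd-/- libraries (log2 fold change 0.24, SE 0.278).

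Clec11a, the only tested gene of the 4 secreted lectins, encodes a growth factor of bone-forming and blood-forming cells. It had between 0.612 and 1.09 CPM in WT and between 0.474 and 1.45 CPM in Gsdmd-/- libraries (log2 fold change -0.04, SE 0.39), and the WT range lay inside that of Gsdmd-/-. The last list has 3 genes, 2 of them tested. Clec1a, a receptor for fungal melanin, had 15.1, 11.3, 8.02 and 15.9 CPM in WT and 11.4, 12.7, 14.5 and 15.3 CPM in Gsdmd-/- libraries (log2 fold change 0.10, SE 0.203). The Gsdmd-/- libraries lay inside the WT range.

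Clec16a on chromosome 16 encodes an intracellular protein of mitophagy that shares the name but is no lectin receptor of the cell surface. It had 70.0, 92.2, 93.1 and 57.3 CPM in WT and 59.99, 64.2, 54.8 and 64.1 CPM in Gsdmd-/- libraries. WT 2 and WT 3 were the highest and WT 4 lay inside the Gsdmd-/- range. The log2 fold change was -0.36 (SE 0.149, unadjusted p = 0.034 and adjusted p = 0.374 in edgeR), and -0.07 without WT 2 and WT 3.

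The 13 genes below the limit had few or no counts. Summed over the 8 libraries, Clec4a4 had 20, Clec12b 11, Clec2g 8, Clec4b2 7, Clec3b 3, Clec4g 3 and Clec4f 1. Clec2h, Clec2j, Clec2e, Clec18a, Clec3a and Clec14a had no count in any library, which allows up to 0.177 to 0.198 CPM in each (3 counts). This limit covers counting error only. Of the 50-base stretches of Clec4a4 15.7% also occur in another gene, most of them in Clec4a2.

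WT 2 and WT 3 were both the lowest of all 8 libraries for 11 of the 20 members (55%), beside 16.6% of all genes tested. These 11 were Clec7a, Clec4e, Clec5a, Clec4a1, Clec4a2, Clec4a3, Clec12a, Clec10a, Clec2i, Clec2l and Clec1a. They were both the highest for 3 members, Clec9a, Clec1b and Clec16a (15%, beside 17.7% of all genes). WT 4 was the highest library for 13 members (65%, beside 17.4% of all genes). The shares are descriptions, since genes of 1 library are not independent.

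**Figure D3:**
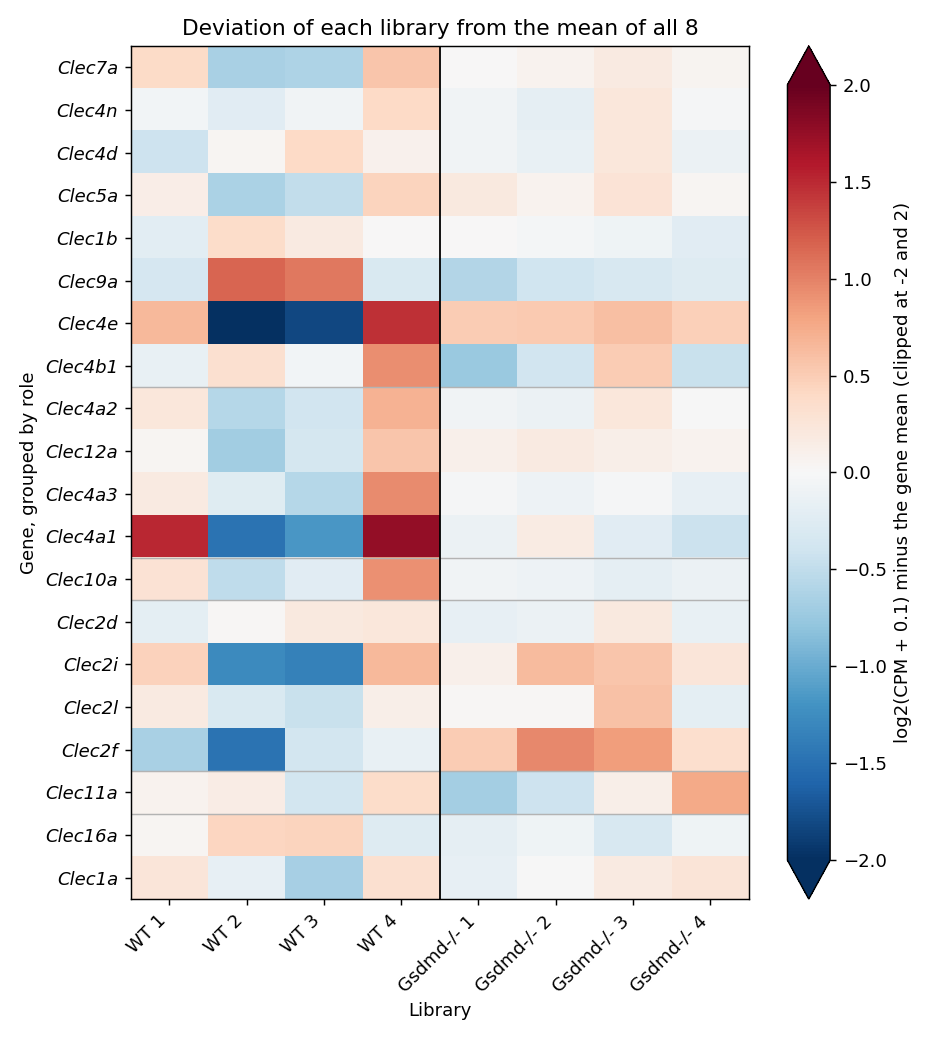
Deviation of each library from the mean of all 8 for the 20 tested genes, as log2(CPM + 0.1) minus the mean of the gene, with red above and blue below it and values past 2 shown at the end colour. The columns of WT 2 and WT 3 are dark blue for Clec4e, Clec4a1 and Clec2i and red for Clec9a, while the 4 Gsdmd-/- columns are pale for most genes.

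The WT libraries differed more among themselves than the Gsdmd-/- libraries did. The SD of log2 CPM was larger in WT for 17 of the 20 members (85%), beside 70.8% of all genes tested. Its median over the members was 0.519 in WT and 0.162 in Gsdmd-/-, where the medians over all genes were 0.255 and 0.17. Clec11a, Clec2l and Clec4b1 were the exceptions.

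Without WT 2 and WT 3, the members past the cutoff of the study were Clec4a1 (-1.84), Clec10a (-0.76), Clec4a3 (-0.70) and Clec4e (-0.58), lower in Gsdmd-/-, and Clec2f (1.31), higher. In this fit 3.09% of all genes were lower and 3.07% higher at the cutoff. An unadjusted p under 0.05 was found for 7 members, beside 12.6% of all genes, and an adjusted p under 0.05 for 1, beside 1.14% of all genes in edgeR. The median log2 fold change of the members was -0.19. Clec4b1 (-0.70, unadjusted p = 0.0911 and adjusted p = 0.502 in edgeR) did not pass the cutoff, and Clec4a2 (-0.46, unadjusted p = 0.00961 and adjusted p = 0.196 in edgeR) did not reach its fold of 0.5 on the log2 scale. Clec4n (-0.19), Clec11a (-0.21), Clec12a (-0.20), Clec1a (-0.20), Clec5a (-0.15) and Clec2d (-0.08) were closer to 0, as were Clec2l (-0.0058), Clec1b (0.014) and Clec4d (0.12). With 2 WT libraries the fit rests on a small group, and all 4 genes were among the 11 for which WT 2 and WT 3 were the lowest libraries.

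Monocyte markers moved with these libraries. Of 6 markers, 5 were tested and none passed the cutoff with all libraries. Their summed level was 212, 69.7, 75.8 and 270.0 CPM in WT and 139.9, 146, 114 and 103 CPM in Gsdmd-/- libraries, low in WT 2 and WT 3 and high in WT 1 and WT 4. Ly6c2, chosen after its values were seen, had 35.8, 1.52, 0.428 and 30.1 CPM in WT and 22.9, 19.8, 19.3 and 15.3 CPM in Gsdmd-/- libraries, and Plac8 was at or under 0.0659 CPM in all. In the fit without WT 2 and WT 3, 2 monocyte markers (Ly6c2 and Ccr2) and 4 macrophage markers (Fcgr1, C1qa, C1qb and C1qc) were lower in Gsdmd-/- at an adjusted p under 0.05 in edgeR, of 5 and 12 tested and beside 0.761% of all genes. The part of monocytes, or of the stage of the culture, in the values of Clec4e, Clec4a1 and the other members was not tested.

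**Figure D4:**
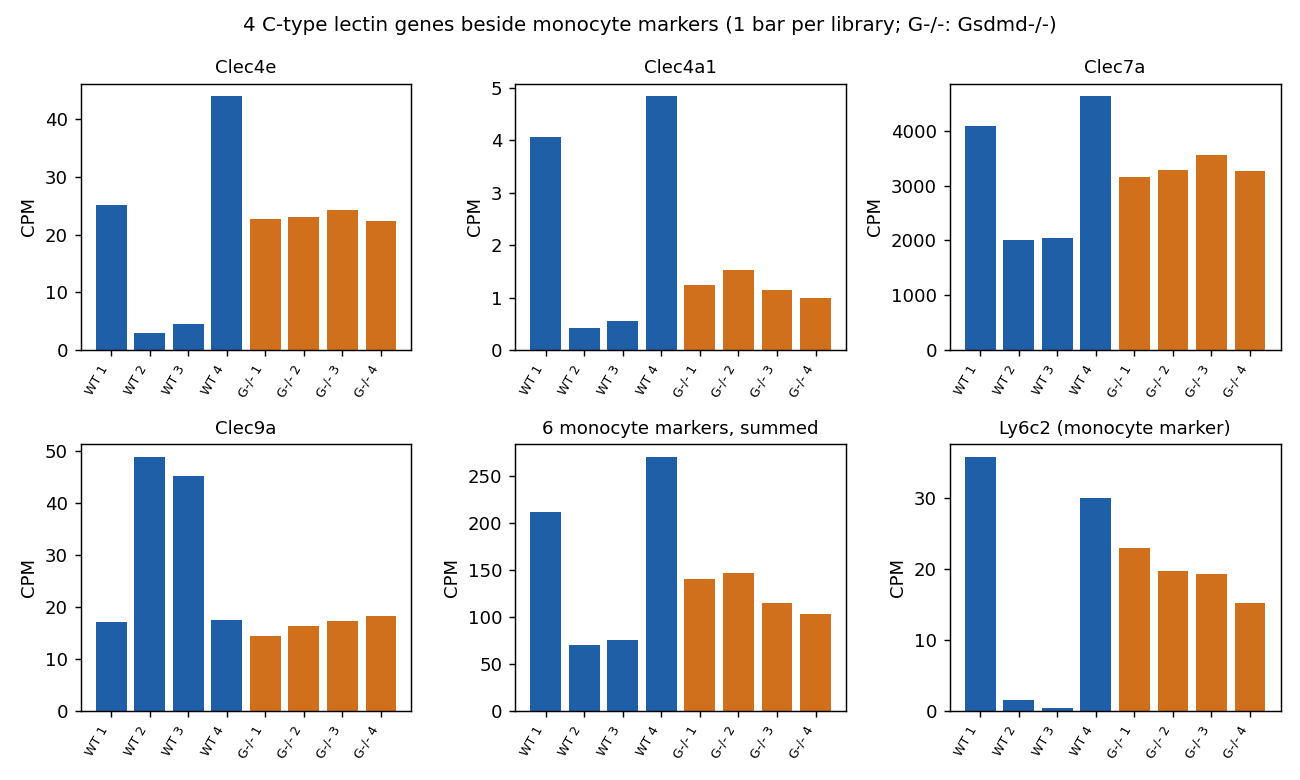
CPM of Clec4e, Clec4a1, Clec7a and Clec9a, of 6 monocyte markers summed and of Ly6c2 in each library, 1 bar per library, with WT in blue and Gsdmd-/- in orange and each axis starting at 0. The bars of WT 2 and WT 3 are the lowest for Clec4e, Clec4a1, Clec7a and both monocyte panels and the highest for Clec9a.

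Markers of other cells were low. Summed levels were at most 7.96 CPM for 10 neutrophil markers (2 tested), 9.71 CPM for 7 mast cell and basophil markers (2 tested), 2.54 CPM for 7 stromal markers (1 tested), 1.23 CPM for 8 lymphoid markers and 0.612 CPM for 6 erythroid markers (none tested), and none of those tested passed the cutoff with all libraries. The stromal marker tested, Pdgfra, was higher at the cutoff when WT 2 and WT 3 were left out (1.53, against -0.88 with all libraries), as were 3.07% of all genes. Of 7 endothelial markers 5 were tested, with summed levels of 34.6 to 70.6 CPM in WT and 50.1 to 82.0 CPM in Gsdmd-/- libraries and Tek at 0. Cdh5 (log2 fold change -0.51) and Esam (-2.0) were lower in Gsdmd-/- at the cutoff, beside 3.68% of all genes. Esam had 5.85 and 4.96 CPM in WT 2 and WT 3 and at most 0.923 CPM elsewhere. Neither Cdh5 (-0.38) nor Esam (0.95) passed the cutoff when WT 2 and WT 3 were left out. Tie1 was then higher in Gsdmd-/- at the cutoff (1.86, beside 3.07% of all genes), and the median of the 5 turned from -0.73 to 0.51.

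The pathway behind the receptors was read from a list of 37 adaptors and signalling genes, all of them tested. None passed an adjusted p under 0.05, 10 had an unadjusted p under 0.05 in edgeR (11.9% of all genes did), and at the cutoff 1, Nfatc2, was lower in Gsdmd-/- (3.68% of all genes were). Nfatc2 had a log2 fold change of -0.53 (SE 0.168, adjusted p = 0.273 in edgeR), and of -0.73 without WT 2 and WT 3 (adjusted p = 0.0742 in edgeR). The log2 fold change was above 0 for 9 and below 0 for 28. Its median was -0.09 with all libraries, beside -0.01 over all genes tested, and -0.17 without WT 2 and WT 3. The genotypes did not overlap for 7 of the 37 (7.17% of all genes), with Prkcd, Lcp2, Ptpn6, Ptpn11, Inppl1 and Map3k14 lower and Ppp3cb higher in every Gsdmd-/- library. With WT 2 and WT 3 left out, 14 had an unadjusted p under 0.05 in edgeR (12.6% of all genes did), and the genes lower at the cutoff (3.09% of all genes) included Fgr and Nfatc2. Fgr, a kinase of the Src family, had 47.0, 14.1, 18.7 and 61.4 CPM in WT and 23.5, 22.4, 24.7 and 22.7 CPM in Gsdmd-/- libraries, so that WT 2 and WT 3 were its lowest libraries as for Clec4a1. Its log2 fold change was -0.60 (adjusted p = 0.593 in edgeR) with all libraries and -1.22 without WT 2 and WT 3 (adjusted p = 0.00187 in edgeR).

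Syk, Card9 and Fcer1g (the Fc receptor gamma chain) were named for their role, with their values already seen. Syk had a log2 fold change of -0.07 (SE 0.0979), Card9 of -0.04 (SE 0.094) and Fcer1g of 0.20 (SE 0.176), and the genotypes overlapped for each of them. These were -0.05, -0.02 and -0.09 without WT 2 and WT 3.

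Ptpn6, which encodes the phosphatase SHP-1 that inhibitory motifs recruit, had the smallest p of the list and was chosen after its values were seen. It had 114, 120.4, 132 and 121 CPM in WT and 86.5, 82.8, 95.3 and 91.9 CPM in Gsdmd-/- libraries. All WT libraries were above all Gsdmd-/- libraries. Its log2 fold change was -0.45 (SE 0.0818, adjusted p = 0.0575 in edgeR), and -0.40 without WT 2 and WT 3 (adjusted p = 0.0902 in edgeR).

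Other genes of the C-type lectin superfamily without a Clec symbol were listed as well. Of 56 listed, 22 were tested. None passed an adjusted p under 0.05, 3 had an unadjusted p under 0.05 in edgeR (11.9% of all genes did), and these 3 were lower in Gsdmd-/- at the cutoff (3.68% of all genes were). Olr1 encodes LOX-1, the receptor for oxidized low-density lipoprotein, and lies on chromosome 6. It had 16.2, 38.1, 41.8 and 22.2 CPM in WT and 13.4, 12.9, 15.4 and 19.0 CPM in Gsdmd-/- libraries, with WT 2 and WT 3 the highest as for Clec9a (log2 fold change -0.96, adjusted p = 0.225 in edgeR). Cd72 (-0.68, adjusted p = 0.282 in edgeR) and Thbd (-0.54, adjusted p = 0.256 in edgeR) had all WT libraries above all Gsdmd-/- libraries. The log2 fold change of the 22 was above 0 for 3 and below 0 for 19. Its median was -0.22 with all libraries, beside -0.01 over all genes tested, and -0.12 without WT 2 and WT 3. When WT 2 and WT 3 were left out, Olr1 was at -0.34 (adjusted p = 0.502 in edgeR), Thbd at -0.32 (adjusted p = 0.507 in edgeR) and Cd72 at -0.92 (adjusted p = 0.0902 in edgeR).

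Mgl2, the near copy of Clec10a, passed an adjusted p under 0.05 without WT 2 and WT 3, the only gene of the 22 that did (0.761% of all genes were lower), and 4 of them (Mgl2, Cd72, Asgr2 and Vcan) were lower at the cutoff (3.09% of all genes were). It had 77.6, 21.4, 25.6 and 79.6 CPM in WT and 31.9, 29.6, 42.6 and 40.8 CPM in Gsdmd-/- libraries. As for Clec10a, WT 2 and WT 3 lay below and WT 1 and WT 4 above all Gsdmd-/- libraries. Its log2 fold change was -0.50 (adjusted p = 0.677 in edgeR) with all libraries and -1.12 without WT 2 and WT 3 (adjusted p = 0.0076 in edgeR).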

How the data were processed

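RNA from untreated BMDMs was sequenced in 4 WT and 4 Gsdmd-/- libraries made with a TruSeq kit from total RNA. The authors deposited 1 table of raw read counts per gene and library, without normalization. The build was mm10 per the submitters' processing notes, and the aligner, the counting tool, its strand setting, the annotation and the read length are not given in the sources used here.

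Columns were matched to samples by label. Positions and exon lengths were taken from GENCODE M21, and promoter sequences from RefSeq. Genes with a summed count of at least 40 were scaled by TMM and tested with edgeR 4.0.16 (R 4.3.3) by its quasi-likelihood test (two-sided), fitted on genotype alone. CPM use the TMM factors. limma 3.58.1, DESeq2 1.42.0, RLE and upper-quartile scaling, other filters, a replicate block, a larger fold cutoff and fits without libraries were tried. The tests were checked on simulated counts. The replicate numbers were not taken as pairs, since the correlation of deviations was above 0.1 for only 1 of the 4 same-numbered pairs.

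Every tested C-type lectin gene was named, and from the other lists (superfamily, signalling, and markers of macrophages, monocytes, dendritic, neutrophil, mast, megakaryocyte, endothelial, stromal, lymphoid and erythroid cells) those past a threshold, up to 6 a list. The members and the lists were chosen with earlier results of these data known. The values of 1 gene of the signalling list are not reported here.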

Additional observations from a re-analysis of the deposited data

Results flagged for a closer look

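Clec2d had 30.4 CPM in Gsdmd-/- 3, while the other Gsdmd-/- libraries lay between 23.6 and 24.6 CPM, so that this library was set apart from its group. It lay inside the WT range. Of 40 groups of 4 libraries examined (20 genes in each genotype) this was the only one with such a gap, and chance alone gives about 1 in 20.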

How the results depend on the processing

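The count of members at an adjusted p under 0.05 stayed at 0 in each direction under all 10 other settings and in the 8 fits that left out 1 library each, except without WT 2 and WT 3 together, where 1 was lower (Clec4a1). The 1 member higher at the cutoff of the study (Clec2f) was 0 with filterByExpr and 0 with at least 10 counts in every library, since Clec2f was not tested there. The 1 lower (Clec9a) became 4 without WT 2 and WT 3, with Clec9a not among them, and 0 with a log2 cutoff of 1. It ranged from 1 to 2 with 1 library left out, where Clec4a1 joined without WT 2 (-1.35) or WT 3 and Clec4b1 without Gsdmd-/- 3 (-0.86). The 1 signalling gene became 3 without WT 2 and WT 3 and ranged from 0 (without Gsdmd-/- 1 or 3) to 3 (without WT 4, and 2 without WT 2).

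Without WT 2 and WT 3, the log2 fold change turned its sign for Clec7a (-0.39), Clec4d (0.12), Clec5a (-0.15), Clec12a (-0.20), Clec1b (0.014), Clec4e (-0.58), Clec1a (-0.20), Clec2i (-0.16) and Clec2l (-0.0058). With 1 library left out it crossed 0 for Clec7a (-0.11 to 0.30), Clec4n (-0.11 to 0.13), Clec4d (-0.21 to 0.058), Clec4a2 (-0.23 to 0.23), Clec12a (-0.0051 to 0.45), Clec4e (-0.090 without WT 2 to 1.10 without WT 4), Clec4a3 (-0.46 to 0.11), Clec1a (-0.062 to 0.24), Clec10a (-0.53 to 0.011) and Clec11a (-0.42 to 0.17), and the median of the members ranged from -0.13 to 0.12. Clec4a2 was 0.0197 with limma voom. The cause was not tested. Clec9a kept its sign in all of these fits (-1.16 to -0.68 with 1 library left out), as did Clec2f (1.31 to 1.88), Clec16a (-0.47 to -0.26) and Clec4a1 (-1.35 without WT 2 to -0.43 without WT 4). Clec4a1 was at -0.65 without WT 1 and at -0.28 with limma voom. Other members that moved with limma voom included Clec4e (1.07, against 0.27 in edgeR) and Clec2i (0.79, against 0.51). Clec7a (0.16, against 0.06) and Clec11a (-0.15, against -0.04) moved as well.

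With the replicate number as a block, Clec4a2 was 0.0188, Clec4e 0.92, Clec4a1 -0.54 and the median of the members -0.04, and 0 members passed an adjusted p under 0.05. The same-numbered libraries had correlations of 0.028, 0.15, 0.04 and -0.15 and share only a number.

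Depth limits Clec2f, with 1 to 5 counts in the WT and 7 to 13 in the Gsdmd-/- libraries, and the members below the limit. Clec4a1 had 7 and 9 counts in WT 2 and WT 3, on which its wide WT range rests, and Clec11a had 8 to 22 counts per library. Both were left out of the fit with at least 10 counts in every library.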
